A study of Homo sapiens with 68 samples.

Results

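The MYC and MXD network was taken as 8 genes, MYC, MYCN, MAX, MXD1, MXD3, MXD4, MXI1 and MNT, of the 11882 genes that a probe set with 1 symbol measured. All 17 probe sets of these genes were used, of 22215 probe sets without controls. The genes were chosen by their signals in treated against vehicle cells on these same arrays. Their differences between treated and vehicle cells are therefore given as a description, with the standard error (SE) of the fit and no test. Tests are given for vehicle cells over time and for genes outside the 8. The vehicle arrays were also the controls of the contrasts that chose the genes, so that the vehicle tests of the 8 are not independent of that choice, and each treated group at 1 time was set against the same vehicle arrays.

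The cells were A673, an established line of Ewing sarcoma, a tumor of bone and soft tissue that carries the EWS/FLI fusion, and all values come from this 1 line. They were treated with DMSO vehicle, with ARA-C (cytarabine, a nucleoside analog that blocks DNA synthesis) at 0.17 or 0.34 uM, with doxorubicin (an anthracycline that poisons topoisomerase II) at 59.88 or 119.76 nM, or with puromycin (a tRNA mimic that ends translation early) at 0.09 or 0.18 uM. For each compound the higher dose was 2 times the EC50, a dose set on cell viability, and the RNA was taken at 24 h, day 3 and day 5. Of 68 arrays, 67 were used: 17 vehicle arrays (6 at 24 h, 5 at day 3 and 6 at day 5) and 3 arrays in each of the 18 treated groups, except 2 for doxorubicin 119.76 nM at day 5, 2 for puromycin 0.09 uM at day 5 and 1 for puromycin 0.18 uM at day 5. The labels call the replicates biological but do not say whether they were separate cultures, so that p-values measure the spread between arrays, which may in part be technical.

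MYC and MYCN are transcription factors that bind DNA at the E-box CACGTG only as dimers with MAX, and they recruit histone acetyltransferases to genes of ribosome production, metabolism and the cell cycle. MXD1, MXI1, MXD3, MXD4 and MNT compete for the same partner and the same sites and recruit the SIN3 corepressor with its histone deacetylases. MXD genes are known to be turned on as cells leave the cycle and differentiate, whereas MYC is known as a gene of dividing cells. In Ewing sarcoma MYC is known to be strongly expressed.

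The puromycin 0.09 uM array of day 5, replicate 3, was left out because its profile was that of blood: the median of its correlations was 0.602, against 0.887 to 0.970 on the others, and its HBB signal was 30546. The 6 measured Ewing sarcoma markers of the 8 listed were above the floor of 10 on all 67 other arrays, with a summed signal of 21482 to 57460, whereas the summed signal of blood markers was 45.6 to 478 and that of epithelial markers 11.8 to 233. The arrays lay on 1 plate, 48 in rows A-F and 19 in rows G-H. The vehicle replicates 4 to 6, all ARA-C 0.34 uM arrays and the puromycin 0.18 uM array of day 5 lay in rows G-H. At day 5 the vehicle arrays of the plate parts stood apart for some genes, including TXNIP and MXD4, so that values within a plate part are given where they matter. On 2 arrays, ARA-C 0.17 uM day 3 replicate 3 and ARA-C 0.34 uM 24 h replicate 2, the dim signals were raised, with 0.221% and 0.941% of probe sets under the floor against 5.8% to 22.4% on the other 65. The ratio of the 3′ to the 5′ ACTB probe set, a sign of shorter RNA when high, had a log2 mean of 1.29 in vehicle at day 5, of 3.71 with ARA-C 0.17 uM, 4.55 with doxorubicin 119.76 nM and 4.13 with puromycin 0.18 uM. It was 2.48 with doxorubicin 59.88 nM, 2.28 with puromycin 0.09 uM and 1.57 with ARA-C 0.34 uM at day 5.

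The promoters of 1 activator and 3 repressors whose signals are described at length below are shown, to place in them the letters to which these proteins themselves bind. They are the 300 bases around the gene start in RefSeq's annotation of GRCh38.p14, read 5′ to 3′ on the strand of the gene. The capitals mark the E-box CACGTG, the GC box GGGCGG, which SP1 binds, and the letters TTTGGCGC, TTTCCCGC or TTTCGCGC that cell cycle promoters carry, each searched on both strands. The MYCN window is chr2:15940300-15940599 on the plus strand, the MXD3 window chr5:177312703-177313002 on the minus strand, the MXD4 window chr4:2262060-2262359 on the minus strand and the MXI1 window chr10:110207355-110207654 on the plus strand.
MYCN: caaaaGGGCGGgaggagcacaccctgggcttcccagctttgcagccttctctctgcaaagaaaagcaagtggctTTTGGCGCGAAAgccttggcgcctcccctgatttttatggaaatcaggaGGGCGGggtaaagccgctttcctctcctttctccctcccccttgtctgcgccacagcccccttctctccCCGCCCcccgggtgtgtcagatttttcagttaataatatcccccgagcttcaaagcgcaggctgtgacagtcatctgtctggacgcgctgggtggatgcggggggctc
MXD3: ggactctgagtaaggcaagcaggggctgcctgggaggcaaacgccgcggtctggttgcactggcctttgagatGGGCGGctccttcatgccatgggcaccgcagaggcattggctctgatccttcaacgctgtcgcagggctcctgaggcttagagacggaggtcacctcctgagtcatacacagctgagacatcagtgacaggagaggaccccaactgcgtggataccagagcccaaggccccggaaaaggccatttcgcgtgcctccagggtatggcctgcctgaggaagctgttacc
MXD4: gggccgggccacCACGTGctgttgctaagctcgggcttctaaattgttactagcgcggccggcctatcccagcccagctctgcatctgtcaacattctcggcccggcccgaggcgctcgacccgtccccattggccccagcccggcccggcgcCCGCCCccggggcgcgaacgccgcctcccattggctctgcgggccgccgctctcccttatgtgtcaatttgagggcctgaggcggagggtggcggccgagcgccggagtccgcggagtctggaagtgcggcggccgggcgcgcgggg
MXI1: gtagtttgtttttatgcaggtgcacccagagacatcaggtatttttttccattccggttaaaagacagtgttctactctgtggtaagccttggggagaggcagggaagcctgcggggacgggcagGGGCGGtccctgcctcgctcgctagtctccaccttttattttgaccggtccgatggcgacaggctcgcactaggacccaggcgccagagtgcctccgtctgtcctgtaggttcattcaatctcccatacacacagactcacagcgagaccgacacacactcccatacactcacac
The table held a window for 7 of the 8 members. An E-box was found in the windows of MXD4 and MNT, at -238 and -193 from the start. All 27305 windows of the same length held an E-box in 7.43%, a GC box in 44.6% and one of the cell cycle letters in 2.79%. MYCN was the only 1 of the 7 with the cell cycle letters, in 2 overlapping matches, and it held 3 GC boxes. MXD3, MXD4 and MXI1 held 1 GC box each, MXD1 2, MNT 4 and MAX 0. The forkhead letters GTAAACA, found in 3.41% of all windows, were in none of the 7. A match is a description of the letters in the window, and a missing match says only that they are not there.

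MYC, which lies on chromosome 8 at 127735434-127742951 (GRCh38.p14), was read by 1 probe set, 202431_s_at. Its signal was well over the floor on each of the 67 arrays, from 1463 to 13287 with a median of 8617. The lowest group means were those of ARA-C 0.17 uM and doxorubicin 119.76 nM at day 5, and the highest that of puromycin 0.18 uM at day 3. In bulk RNA, fewer cells that make a transcript and less of it in each cell cannot be told apart.

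In vehicle cells the MYC signals were 7939, 11696, 7797, 9148, 11366 and 9150 at 24 h. They were 10254, 11483, 8853, 9076 and 9587 at day 3. At day 5 they were 7828, 6478 and 7892 in rows A-F and 11018, 10517 and 9777 in rows G-H. The vehicle arrays of the 3 times overlapped, and at day 5 the arrays of rows A-F lay below those of rows G-H.

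ARA-C at 0.17 uM gave MYC signals of 6261, 4164 and 5112 at 24 h, 9090, 6913 and 6702 at day 3, and 5129, 1463 and 3523 at day 5. At 24 h and at day 5 each treated array lay below each vehicle array of the same time. The log2 difference from vehicle was -0.88 (SE 0.19, n = 3 against 6) at 24 h, which is 1.84-fold lower, and -1.56 (SE 0.19, n = 3 against 6) at day 5, which is 2.94-fold lower. At day 3 it was -0.39 (SE 0.20, n = 3 against 5), and the groups overlapped by 1 array. The lowest day 5 array, at 1463, was replicate 2, and without it the day 5 difference was -1.04, still below. The higher dose did not lie lower: ARA-C at 0.34 uM gave 9513, 7328 and 7422 at 24 h, 8801, 8063 and 8102 at day 3, and 8590, 8617 and 8323 at day 5. At day 3 all 3 arrays of 0.34 uM lay below all 5 vehicle arrays, the lowest of which was 8853. The log2 differences of this dose were -0.23, -0.24 and -0.04, and -0.29 at day 5 against the vehicle arrays of its own plate part, all 3 of which lay above it. The doses lay in different plate parts, each with its own vehicle arrays, and against these the day 5 difference was -1.31 at 0.17 uM and -0.29 at 0.34 uM. The difference between the doses was not tested.

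Doxorubicin at 59.88 nM gave MYC signals of 7347, 8764 and 7478 at 24 h, 11409, 10344 and 11402 at day 3, and 8087, 5394 and 6238 at day 5, with log2 differences of -0.26, 0.17 and -0.44. All 3 groups overlapped with vehicle. At 119.76 nM the day 5 signals were 3591 and 3706, and both lay below all 6 vehicle arrays, with a log2 difference of -1.26 (SE 0.22, n = 2 against 6), or 2.40-fold lower. At 24 h that dose gave 8447, 7542 and 6518 and at day 3 9403, 13287 and 9447, which overlapped with vehicle.

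Puromycin at 0.09 uM gave 6710, 9048 and 9073 at 24 h, 12294, 11589 and 11336 at day 3, and 8362 and 9818 at day 5, where the third array was left out. The log2 differences were -0.20, 0.26 and 0.05. At 0.18 uM the day 3 signals of 12438, 12617 and 11948 lay above all 5 vehicle arrays, with a log2 difference of 0.33, and the single day 5 array, at 6018, lay below all 6, with a difference of -0.54. At 24 h that dose gave 7130, 9733 and 9227, a difference of -0.12.

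Of the 18 treated groups, 5 had all MYC arrays below all vehicle arrays of their time and 1 had all above. Over all 22215 probe sets in the 18 groups, 16.4% of the pairs of probe set and group lay wholly below vehicle and 10.6% wholly above. The choice of the genes used these contrasts, so that nothing is read from the comparison of these shares. The same holds for such counts of the other genes below, whose groups share the vehicle arrays of their time. The groups in which MYC was lowest at day 5 were those with high ACTB 3′ to 5′ ratios. In them the 6 Ewing markers were lower as well: the summed signal was 27394 to 39186 with ARA-C 0.17 uM and 21482 to 24180 with doxorubicin 119.76 nM, against 41829 to 57460 in vehicle, and 4 and 6 of the 6 were called lower. The 5 epithelial markers summed to 81.9 to 116 and 130 to 233, against 11.8 to 61.8, with 1 and 3 called higher, and the 8 measured blood markers to 111 to 238 and 222 to 318, against 61 to 111, with 1 and 2 called higher. Of all probe sets 38% were called lower and 9.57% higher with ARA-C 0.17 uM at day 5. The shares for doxorubicin 119.76 nM are not given here. The single puromycin 0.18 uM array of day 5 had a ratio of 4.13 and a MYC difference of -0.54. Its Ewing, epithelial and blood markers summed to 24570, 109 and 421. Of the Ewing markers, NKX2-2 and PRKCB fell by 1.11 and 1.85 with ARA-C 0.17 uM. Both are also on the paper's list of genes that were lower after EWS/FLI knockdown. Of the network, MXD4 (212347_x_at) is on its list of genes that were higher after the knockdown. The paper also cites earlier work in Ewing sarcoma cells, where MYC and ID2 were not significantly changed as reported from other cell systems. From day 3 to day 5 vehicle cells themselves had 4 of the 6 Ewing markers called higher. The highest signal of any single blood or epithelial marker on the 67 arrays was 135. The part of RNA length, of EWS/FLI or of a change of cells in the MYC difference was not tested.

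**Figure D1:**
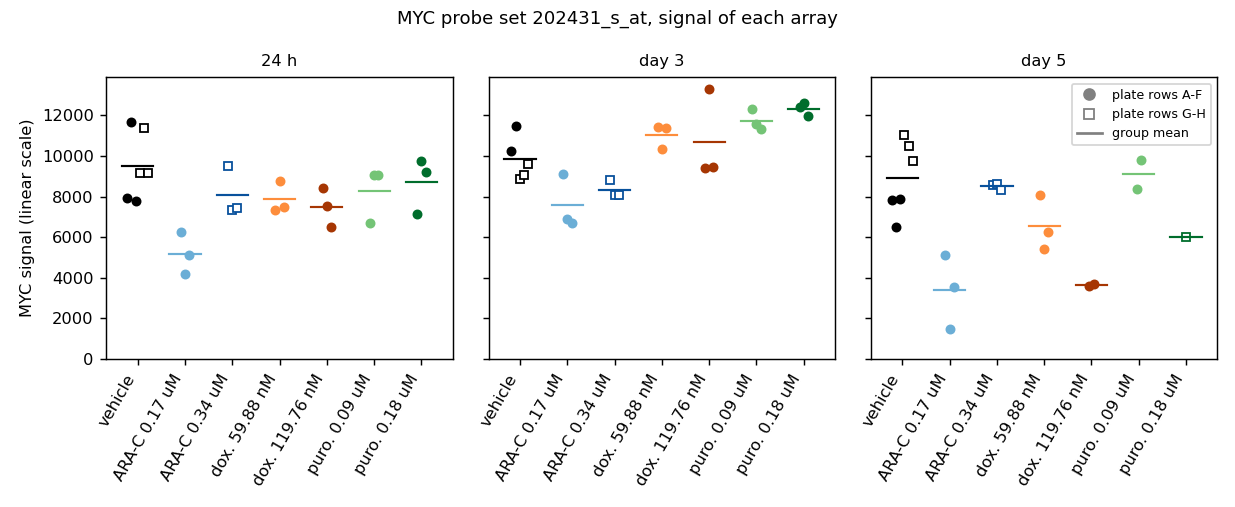
MYC signal (202431_s_at, linear MAS5 units) of each array, with 1 panel for each time, in which the vehicle arrays and the 2 doses of each compound stand side by side. At day 5 the 3 arrays of ARA-C 0.17 uM lie between 1463 and 5129 and those of doxorubicin 119.76 nM at 3591 and 3706, below the vehicle arrays at 6478 to 11018.

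The arrays were scaled by the authors to a common mean, and several groups then differed from vehicle at their median. The median log2 difference over all probe sets was 0.27 for ARA-C 0.17 uM at day 3, -0.28 at day 5, 0.20 for ARA-C 0.34 uM at 24 h, -0.15 and -0.25 for doxorubicin 59.88 and 119.76 nM at day 5, and -0.14 and -0.29 for puromycin 0.09 and 0.18 uM at day 5. In the other comparisons used below it was -0.10 and -0.06 for puromycin 0.09 uM at 24 h and day 3 and between -0.02 and 0.03 elsewhere. Relative to these medians the MYC difference was -0.66 for ARA-C 0.17 uM at day 3, -1.28 at day 5, -1.01 for doxorubicin 119.76 nM at day 5 and -0.25 for puromycin 0.18 uM at day 5. After quantile normalization MYC was -0.84, -0.30 and -1.06 for ARA-C 0.17 uM at 24 h, day 3 and day 5 and -0.77 for doxorubicin 119.76 nM at day 5, so that the direction of these 4 held. For puromycin 0.09 uM it did not hold: the 24 h difference was -0.20 as deposited and 0.12 with a common median, and the day 5 difference was 0.05 as deposited, -0.09 after quantile normalization and 0.53 with a common median.

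MYCN, the relative of MYC known from neuroblastoma, lies on chromosome 2 at 15940550-15947004. It was read by 3 probe sets, of which 209757_s_at was above the floor on all 67 arrays (58.5 to 453). The other 2, 209756_s_at and 211377_x_at, were under the floor on 45 and 60 of the 67 and had correlations of 0.07 and -0.10 with it over the 21 group means, and they are not described further.

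On 209757_s_at vehicle cells had signals of 147, 111, 95.0, 79.8, 83.4 and 106 at 24 h, 105, 75.1, 69.6, 90.7 and 58.5 at day 3, and 76.8, 137, 83.9, 125, 96.4 and 141 at day 5. Doxorubicin 59.88 nM gave 138, 194 and 201 at 24 h, 429, 447 and 400 at day 3 and 375, 390 and 347 at day 5. The day 3 and day 5 arrays lay above all vehicle arrays of their times, by a log2 difference of 2.44 (SE 0.26, 5.44-fold) and 1.79 (SE 0.25, 3.46-fold). At 119.76 nM the day 3 signals were 453, 322 and 374 (2.28) and the day 5 signals 304 and 236 (1.32, SE 0.29), again all above, and the higher dose did not lie higher.

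ARA-C at 0.34 uM gave MYCN signals of 329, 228 and 287 at day 3 and 402, 237 and 357 at day 5, with log2 differences of 1.83 and 1.60 and no overlap. At 0.17 uM they were 165, 170 and 314 at day 3 (1.40, SE 0.26, and 1.10 without the array with raised dim signals, which is the one at 314) and 209, 103 and 229 at day 5 (0.67, SE 0.25, with overlap). At both days the higher dose had the higher mean, with overlap of the arrays at day 3. Against vehicle of their own plate parts the differences at 24 h, day 3 and day 5 were 0.04, 1.22 and 0.82 at 0.17 uM and 0.26, 1.95 and 1.44 at 0.34 uM, and the difference between the doses was not tested. Puromycin 0.09 uM overlapped with vehicle at each time, with differences of 0.06, 0.16 and -0.04. Puromycin 0.18 uM lay above at day 3, at 209, 161 and 183 (1.23).

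In all, 9 of the 18 groups had all MYCN arrays above all vehicle arrays, and 0 had all below, beside shares of 10.6% and 16.4% over all probe sets. The group mean was above vehicle in 17 of 18 as deposited, after quantile normalization and with a common median. MYC was below vehicle in 13 of the 18 groups as deposited, in 14 after quantile normalization and in 12 with a common median. At day 3 of doxorubicin 59.88 nM MYCN was 5.44-fold higher while MYC differed by 0.17.

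**Figure D2:**
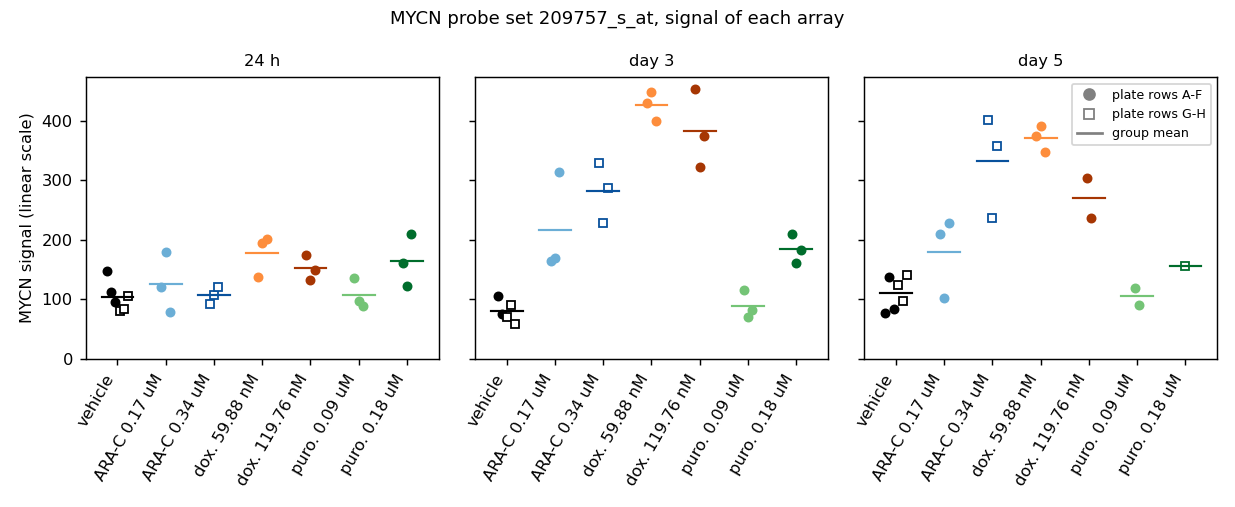
MYCN signal (209757_s_at, linear MAS5 units) of each array, with 1 panel for each time, in which the vehicle arrays and the 2 doses of each compound stand side by side. Vehicle arrays lie between 58.5 and 147 at all times, whereas doxorubicin 59.88 nM lies between 347 and 447 at days 3 and 5 and puromycin 0.09 uM within or close to the vehicle range.

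MAX, the partner of all the others, lies on chromosome 14 at 65006101-65102695 and was read by 6 probe sets that did not move together. On 209332_s_at the vehicle signals were 1652 to 2045 at 24 h, 1614 to 1781 at day 3 and 1243 to 1915 at day 5. Doxorubicin 59.88 nM gave 2009, 2107 and 1945 at day 3 and 2177, 2367 and 2074 at day 5, above all vehicle arrays, with log2 differences of 0.27 and 0.55 (SE 0.11 at day 5). At 119.76 nM the signals were 2476, 2121 and 2469 at day 3 (0.49) and 2670 and 2386 at day 5 (0.75, SE 0.13). Of the 18 groups, 5 were wholly above on this probe set and 0 wholly below, beside shares of 10.6% and 16.4% over all probe sets.

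Other MAX probe sets lay the other way. On 209331_s_at 6 of the 18 groups were wholly below vehicle and 0 above, and on 210734_x_at 7 were below and 1 above. Over all probe sets the shares were 16.4% below and 10.6% above. ARA-C 0.17 uM at day 5 gave 323, 81.6 and 244 on 209331_s_at against 435 to 593 in vehicle (-1.41, SE 0.28). The correlation over the 21 group means was 0.89 between 209331_s_at and 210734_x_at and from -0.25 to 0.33 between 209332_s_at and the other 5. Whether they read different transcripts of MAX was not tested, and the level of MAX cannot be summed up in 1 value.

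MXI1, a repressor of the MXD family, lies on chromosome 10 at 110207605-110287365 and rose at each step of the time course in untreated cells. Its signals on 202364_at were 699, 588, 546, 555, 489 and 506 in vehicle at 24 h, 1101, 973, 934, 976 and 933 at day 3, and 2027, 1906, 1691, 2498, 1995 and 2617 at day 5. The vehicle arrays of the 3 times did not overlap. MXI1 rose by 0.81 (log2, SE 0.10) from 24 h to day 3, with a limma adjusted p of 1.1e-07, and by 1.10 (SE 0.10), or 2.14-fold, from day 3 to day 5, with a limma adjusted p of 7.2e-12. Within rows A-F the steps were 0.77 and 0.85 and within rows G-H 0.88 and 1.31, each with a limma adjusted p of 2.6e-04 or less.

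Treated cells did not reach the day 5 signal of vehicle cells at either dose of any compound. ARA-C gave 682, 487 and 601 at 0.17 uM (-1.84) and 1084, 897 and 1023 at 0.34 uM (-1.07). Doxorubicin gave 1196, 1061 and 1069 at 59.88 nM (-0.92) and 611 and 677 at 119.76 nM (-1.71), and puromycin 1081 and 1083 at 0.09 uM (-0.96) and 486 on the single array at 0.18 uM (-2.11). All lay below all 6 vehicle arrays, whose lowest was 1691. After quantile normalization the 6 differences were -1.0, -1.03, -0.48, -0.69, -0.82 and -1.14, and with a common median -1.43, -1.10, -0.57, -1.30, -0.47 and -1.81. The size thus moved with the scaling while the direction held in all 6. These 6 groups share the same vehicle arrays of day 5, in which MXI1 was high. The largest falls as deposited, with ARA-C 0.17 uM, doxorubicin 119.76 nM and puromycin 0.18 uM, went with the highest ACTB 3′ to 5′ ratios. Their log2 means were 3.71, 4.55 and 4.13, against 1.57 to 2.48 in the other treated groups of day 5. The part of RNA length in these differences, and in the day 5 differences of MXD3 below, was not tested.

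Earlier, doxorubicin lay on the other side. At 24 h MXI1 was 793, 743 and 740 with 59.88 nM (0.44) and 1107, 864 and 741 with 119.76 nM (0.67), and at day 3 1139, 1151 and 1151 (0.22) and 1297, 1158 and 1133 (0.28). All 4 groups lay above all vehicle arrays of their times. ARA-C 0.17 uM at 24 h, at 442, 409 and 438, lay below (-0.38). Over time, doxorubicin 59.88 nM arrays thus went from between 740 and 793 at 24 h to between 1061 and 1196 at day 5, and vehicle arrays from between 489 and 699 to between 1691 and 2617.

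MXD3, known as the MXD member of the S phase of dividing cells, lies on chromosome 5 at 177305499-177312752. Its probe set 221250_s_at was dim, with 16 of 67 arrays under the floor. Vehicle signals were 88.0, 46.0, 62.0, 86.9, 9 and 12.7 at 24 h, 66.2, 51.7, 46.5, 35.4 and 105 at day 3, and 190, 165, 139, 339, 211 and 266 at day 5. MXD3 rose from day 3 to day 5 by 1.88 (SE 0.55, limma adjusted p = 0.0087), with no overlap of the arrays. Within rows A-F the step was 1.48 (limma adjusted p = 0.34) and within rows G-H 2.26 (limma adjusted p = 0.014).

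At day 5 each treated array lay below each vehicle array. The signals were 14.7, 14.8 and 57.5 with ARA-C 0.17 uM (-3.17), 59.5, 43.5 and 17.2 with 0.34 uM (-2.56), 10.1, 6.24 and 9.07 with doxorubicin 59.88 nM (-4.38), 22.2 and 7.38 with 119.76 nM (-3.81), 8.45 and 9.28 with puromycin 0.09 uM (-4.38) and 37.9 with 0.18 uM (-2.46). Signals under 10 were set to 10, so that the differences of the groups with such arrays are understated. At day 3 doxorubicin gave 4.80, 2.97 and 6.18 at 59.88 nM (-2.50) and 17.7, 5.89 and 19.2 at 119.76 nM (-1.92), and puromycin 0.18 uM 7.91, 5.31 and 12.6 (-2.39), again wholly below. Of the 18 groups 9 were wholly below and 0 wholly above, beside shares of 16.4% and 10.6% over all probe sets. These shares pool all times, although with ARA-C 0.17 uM 38% of all probe sets were called lower at day 5 and 8.94% at 24 h. The day 5 groups share the same vehicle arrays.

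MXD4 lies on chromosome 4 at 2247432-2262109 and was read by 3 probe sets with correlations of 0.42 to 0.61 over the 21 group means. On 210778_s_at vehicle arrays gave 48.3, 10.0, 50.9, 31.6, 2.80 and 21.6 at 24 h and 56.6, 5.04, 30.6, 37.8 and 33.3 at day 3. At day 5 they gave 72.8, 81.2 and 95.1 in rows A-F and 223, 232 and 217 in rows G-H. The rise from day 3 to day 5 was 2.21 (SE 0.39, limma adjusted p = 1.8e-05) over all rows, 1.79 within rows A-F (limma adjusted p = 0.034) and 2.73 within rows G-H (limma adjusted p = 1.2e-05). It was called in both plate parts, and the day 5 arrays of rows G-H lay above those of rows A-F without overlap.

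The second MXD4 probe set, 212346_s_at, rose by 2.16 (SE 0.49, limma adjusted p = 6.6e-04) between the same days, with day 5 signals of 70.7, 72.7 and 78.2 in rows A-F and 263, 215 and 247 in rows G-H. Within rows A-F the step of 1.32 was not called (limma adjusted p = 0.32). The third, 212347_x_at, differed by 0.63 (SE 0.25), which missed the threshold (limma adjusted p = 0.058) but passed when the plate part was blocked (0.65, limma adjusted p = 0.049), when the replicate number was blocked (0.66, limma adjusted p = 0.047), within rows G-H (1.06, limma adjusted p = 0.0071) and without the 2 arrays with raised dim signals (limma adjusted p = 0.038).

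The MXD4 probe sets differed in treated cells. On 210778_s_at ARA-C at day 3 gave 79.9, 84.3 and 57.3 at 0.17 uM (1.31) and 64.5, 71.4 and 66.5 at 0.34 uM (1.2). Doxorubicin gave 86.9, 79.0 and 66.2 at 59.88 nM (1.39) and 56.8, 89.3 and 75.9 at 119.76 nM (1.31), so that all 4 groups were wholly above. At day 5 puromycin gave 56.8 and 26 at 0.09 uM (-1.82) and 10.2 at 0.18 uM (-3.74), wholly below. On 212346_s_at the day 3 differences of the same 4 ARA-C and doxorubicin groups were 1.52, 1.0, 1.15 and 0.62, with overlap in all but the first, and on 212347_x_at 0.25, 0.43, 0.35 and 0.12, all with overlap. At day 5 puromycin 0.09 uM lay wholly below on these sets too (-1.68 and -1.03), and the 0.18 uM array lay below on 212346_s_at (-1.58) but not on 212347_x_at (-0.20). The 0.09 uM arrays lay in rows A-F. The day 5 vehicle medians of 210778_s_at, 212346_s_at and 212347_x_at were 81.2, 72.7 and 102 there and 223, 247 and 187 in rows G-H. The differences of 0.09 uM from all vehicle arrays are thus larger in size than those within its plate part.

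**Figure D3:**
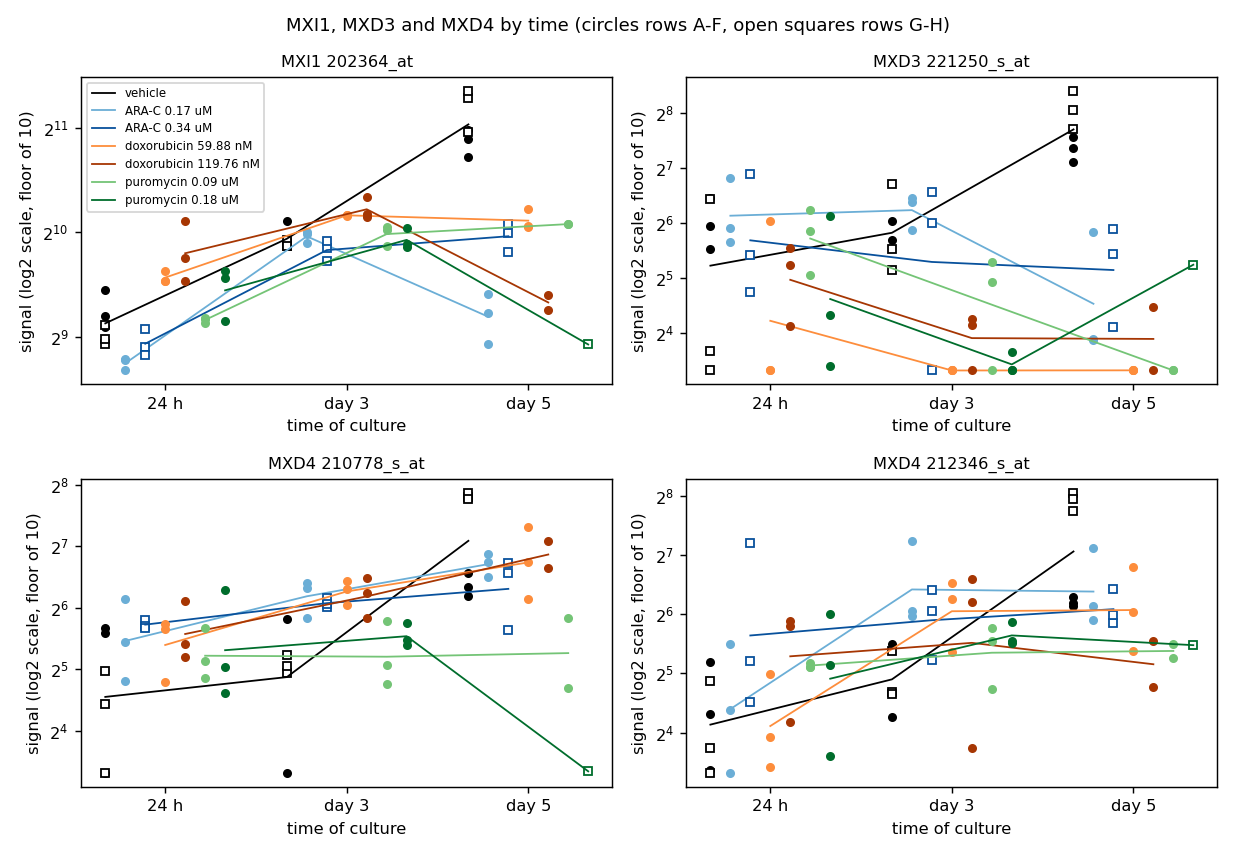
Signal (log2 axis, values under 10 drawn at 10) of MXI1, MXD3 and 2 probe sets of MXD4 on each array by time, with lines through the group means. In vehicle cells all 4 probe sets were higher at day 5 than at day 3, and the MXI1 and MXD3 arrays of every treated group lie below vehicle at day 5.

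MNT, a repressor present in resting and dividing cells alike, lies on chromosome 17 at 2384073-2401060. Its vehicle signals on 204206_at were 650, 713, 685, 705, 675 and 729 at 24 h, 704, 739, 484, 523 and 633 at day 3, and 754, 774, 702, 845, 842 and 913 at day 5. The step from day 3 to day 5 of 0.40 (SE 0.15) missed the threshold, with a limma adjusted p of 0.054, and was 0.04 within rows A-F and 0.67 (limma adjusted p = 0.0086) within rows G-H. ARA-C 0.17 uM gave 937, 1329 and 1102 at 24 h (0.68, SE 0.18) and 1280, 1023 and 1157 at day 5 (0.52), wholly above vehicle. Doxorubicin 119.76 nM gave 1114, 1299 and 1328 at 24 h (0.84) and 1567 and 1382 at day 5 (0.87, SE 0.21), also wholly above. MNT was wholly above in 5 of the 18 groups and wholly below in 0, beside shares of 10.6% and 16.4% over all probe sets. Against the fewer vehicle arrays of its own plate part it was above in 6 and below in 3, for which no share over all probe sets was counted. The ARA-C 0.17 uM day 5 difference was 1.39 after quantile normalization and 0.93 with a common median.

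MXD1, known as a gene of differentiating cells, lies on chromosome 2 at 69915109-69942945. Its probe set 206877_at was under the floor on 58 of the 67 arrays, so that no difference can be read. Its 160 and 44.1 were on the 2 arrays with raised dim signals.

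**Figure D4:**
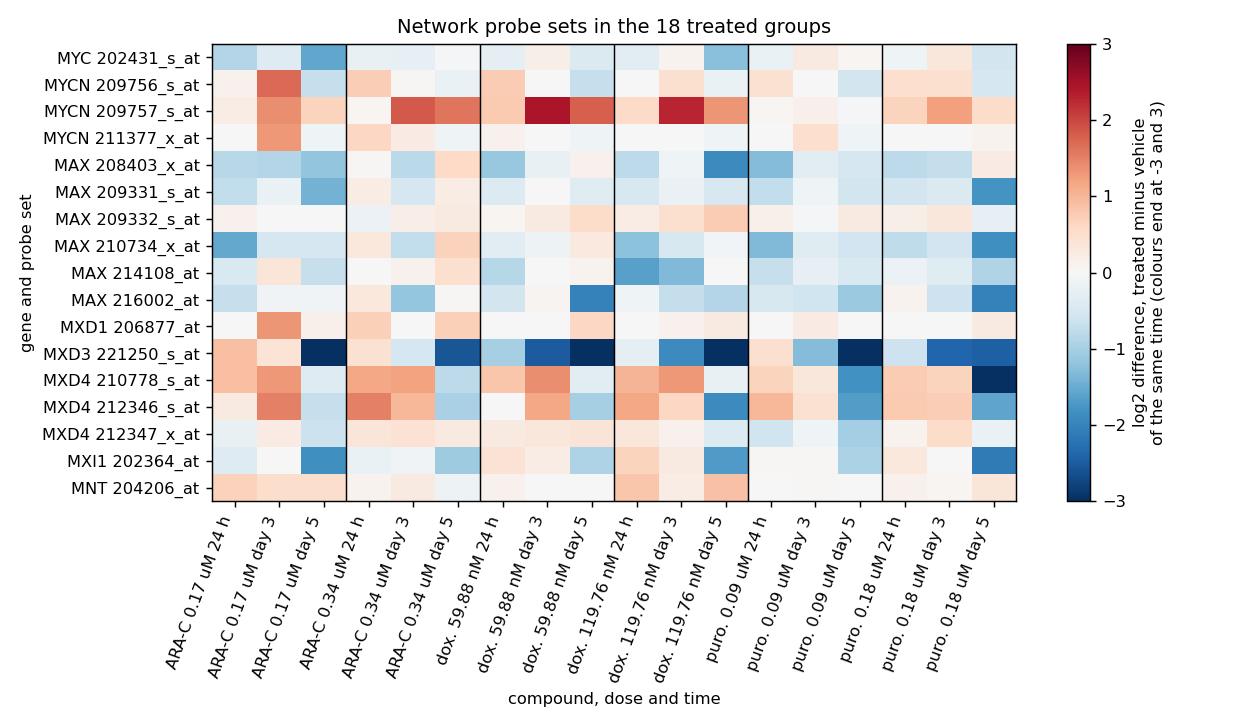
Log2 difference from the vehicle arrays of the same time (color) for the 17 probe sets of the 8 genes (rows) in the 18 treated groups (columns). MYCN 209757_s_at is above vehicle in 17 of 18 groups and MXD3 is wholly below in 9, while MXI1 changes side between doxorubicin at 24 h or day 3 and day 5.

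Over the 17 probe sets, the vehicle time course gave 1 call (MXI1) from 24 h to day 3, higher, and 0 lower. Over all 22215 probe sets 1.5% were called higher and 1.88% lower in that step. From day 3 to day 5, 4 were called higher (MXI1, MXD3 and 2 of MXD4) and 2 lower (MAX 209331_s_at and 210734_x_at), with a median of 0.25, whereas 12.1% of all probe sets were called higher and 9.12% lower. MAX 210734_x_at fell by 1.25 on the log2 scale (SE 0.33, limma adjusted p = 0.0037) and 209331_s_at by 0.66 (SE 0.24, limma adjusted p = 0.041), the latter losing its call when any of 8 single arrays was left out. Within rows A-F the limma adjusted p of 210734_x_at was 0.043 and of 209331_s_at 0.25, and within rows G-H 0.13 and 0.2, where another MAX probe set, 209332_s_at, was called (-0.33, limma adjusted p = 0.034). MYC did not pass in either step, at 0.06 (SE 0.16, limma adjusted p = 0.98) and -0.16 (SE 0.16, limma adjusted p = 0.6). Its second step was -0.56 within rows A-F (limma adjusted p = 0.17) and 0.19 within rows G-H.

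The genes that MYC is known to activate were described in a list of 40, of which 36 were measured. In untreated cells 19 of the 36 fell from day 3 to day 5 and 2 rose, with a median of -0.33. Within rows A-F 6 fell and 0 rose and within rows G-H 25 fell and 3 rose, and the counts were 20 and 2 after quantile normalization and 21 and 1 with a common median. CDC25A, a phosphatase that drives entry into S phase, fell by 0.95 (SE 0.15, limma adjusted p = 3.7e-06) and TFRC, the transferrin receptor, by 0.87. DNPH1, a nucleotide hydrolase, went the other way, at 0.73. From 24 h to day 3, 1 of the 36 passed, UBTF, a factor of ribosomal RNA transcription, at -0.76 (limma adjusted p = 0.01).

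With ARA-C 0.17 uM, 2 of the 36 rose and 6 fell at 24 h (median -0.13), against 1 and 2 with a common median, and leaving out single arrays took the calls from 8 to between 3 and 8. Of all probe sets 5.46% were called higher and 8.94% lower. EIF4E, which binds the cap of mRNA, fell by 0.80 (limma adjusted p = 0.0011) at 24 h, by 1.03 (limma adjusted p = 3.2e-05) at day 3 and by 1.95 (SE 0.18, limma adjusted p = 1.5e-13) at day 5, to a mean signal of 763 against 2784. ID2 fell by 0.86 at 24 h and SLC2A1, a glucose carrier, rose by 0.78. At day 3, 0 rose and 8 fell, beside 14.7% of all probe sets higher and 8% lower, and 2 fell without the array with raised dim signals and 13 with a common median. At day 5, 5 rose and 17 fell as deposited (median -0.22), but 13 rose and 8 fell after quantile normalization and 13 and 6 with a common median, so that no direction of the list can be given. At that time 9.57% of all probe sets were called higher and 38% lower, and these shares moved with the scaling as well. SHMT1, an enzyme of one-carbon metabolism, fell by 2.47 (SE 0.43, limma adjusted p = 2.6e-06). CCND2, a D-type cyclin, rose by 1.65 from a vehicle mean of 19.1, near the floor.

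With doxorubicin 59.88 nM 0 rose and 4 fell at 24 h, 1 and 8 at day 3, and 9 and 9 at day 5, with medians of -0.03, -0.11 and 0.04. The shares of all probe sets called were 2.61% higher and 2.78% lower at 24 h, 9.07% and 11.2% at day 3, and 11.5% and 29.1% at day 5. At day 5 the counts were 15 and 8 after quantile normalization, 20 and 5 with a common median, and 4 and 12 against the vehicle arrays of the same plate part. HK2, the hexokinase of many tumors, fell by 0.90 at day 3 and by 1.52 (limma adjusted p = 7e-10) at day 5. CCND2 rose by 1.84 and 2.27 at these times, from vehicle means of 24.4 and 19.1, near the floor.

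Puromycin 0.09 uM gave 0 higher and 7 lower at 24 h, 0 and 1 at day 3, and 12 and 2 at day 5, with medians of -0.02, 0.00 and 0.16. All probe sets were called in 2.13% higher and 8.36% lower at 24 h, 0.707% and 2.5% at day 3, and 5.51% and 12.1% at day 5. The 24 h calls were 0 with a common median. The day 5 calls, which rest on 2 treated arrays, were 25 higher and 0 lower with a common median and 3 and 0 within the same plate part. NOP56, a protein of small nucleolar particles, rose by 1.18 (limma adjusted p = 0.00038) and TFRC by 1.08 (limma adjusted p = 0.0019). PKM, the pyruvate kinase, fell by 0.75 (limma adjusted p = 2e-06) at 24 h, and SRM, spermidine synthase, by 0.58 (limma adjusted p = 0.021) as the 1 call of day 3. The day 5 comparisons of all 3 compounds use the vehicle arrays in which 19 of the 36 genes had fallen, and their ACTB 3′ to 5′ ratios were above that of vehicle. The part of either in these counts was not tested.

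The scaling also moved the balance of calls over all probe sets, against which these counts stand. As deposited, after quantile normalization and with a common median, the calls that were higher made up 37.9%, 51.9% and 37.9% for ARA-C 0.17 uM at 24 h, 64.7%, 49% and 23.7% at day 3, and 20.1%, 48.4% and 46.5% at day 5. They made up 28.3%, 49.5% and 53.9% for doxorubicin 59.88 nM at day 5. For puromycin 0.09 uM they were 20.3%, 53.4% and 75.8% at 24 h, 22.1%, 52.2% and 66.6% at day 3, and 31.4%, 54.6% and 80.8% at day 5. In the vehicle step from day 3 to day 5 they were 57.1%, 50.5% and 36.7%, so that the fall of MYC-activated genes there went with a majority of higher calls as deposited.

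**Figure D5:**
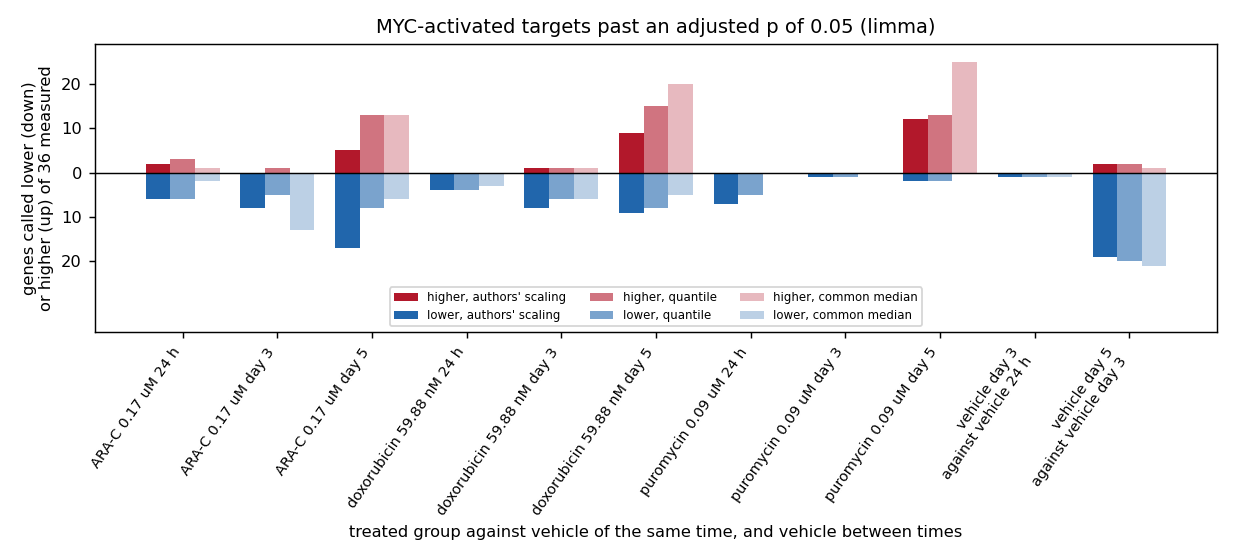
Number of the 36 measured MYC-activated genes called higher (above 0) or lower (below 0) in 11 comparisons, under the authors' scaling, quantile normalization and a common median. From day 3 to day 5 of vehicle cells the fall is seen under all 3, while the day 5 comparison of ARA-C turns from 5 higher and 17 lower to 13 and 8 or 13 and 6 with the scaling.

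Of the 15 genes that MYC is known to repress 14 were measured. The counts of this and the following lists stand beside the shares of all probe sets given above, such as 9.57% higher and 38% lower with ARA-C 0.17 uM at day 5. With ARA-C 0.17 uM 2 rose and 1 fell at 24 h, 6 and 1 at day 3 (median 0.78), and 3 and 5 at day 5, the last being 6 and 4 after quantile normalization. With doxorubicin 59.88 nM 3 rose and 0 fell at 24 h, 6 and 1 at day 3 (median 0.72), and 6 and 4 at day 5. CDKN1A, the inhibitor p21 and a target of p53 as well, rose with ARA-C by 1.68 at day 3 and 1.62 (limma adjusted p = 1.9e-11) at day 5 and with doxorubicin by 1.74 and 2.29 (SE 0.17, limma adjusted p = 5.6e-16), to a mean signal of 1751 against 377. With puromycin it fell by 1.22 at 24 h and by 0.92 at day 3. THBS1, a matrix protein that limits vessel growth, rose by 3.09 with ARA-C, 4.15 (SE 0.42, limma adjusted p = 7.8e-12) with doxorubicin and 1.98 with puromycin at day 5, and fell by 2.68 in vehicle cells from day 3 to day 5. The day 5 vehicle mean of THBS1 was 15.8 (SD 12.4), near the floor of 10, so that the size of these differences depends on the floor. CDKN1B, the inhibitor p27, lay the other way, with a fall of 2.63 with ARA-C and of 2.29 with doxorubicin at day 5.

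In puromycin cells 1 of the 14 rose and 2 fell at 24 h (4 and 1 with a common median), 3 and 1 at day 3 and 1 and 3 at day 5, the last being 5 and 3 with a common median. In vehicle cells 4 rose and 2 fell from day 3 to day 5, among them NDRG1, a stress response gene, at 1.37 (limma adjusted p = 2.8e-10) and CDKN1C at 1.94. Within rows A-F 1 rose and 4 fell and within rows G-H 7 rose and 2 fell, so that the balance of the list differed between the plate parts.

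The coactivators of MYC, histone acetyltransferase and remodeling subunits, were measured in 10 of 12. With ARA-C 0.17 uM 0 rose and 4 fell at 24 h, 0 and 3 at day 3, and 0 and 9 at day 5, with medians of -0.35, -0.39 and -1.10. At day 5, 5 fell and 1 rose after quantile normalization and 7 and 1 with a common median. RUVBL1, an ATPase shared by these complexes, fell by 0.70, 1.08 and 2.05 (SE 0.19, limma adjusted p = 4.4e-13) over the 3 times, to 746 against 2999. With doxorubicin 0 rose and 1 fell at 24 h, 0 and 4 at day 3, and 1 and 6 at day 5 (4 and 5 after quantile normalization), and SMARCB1 fell by 1.13, 0.78 and 1.64 (limma adjusted p = 3.2e-11). With puromycin 0 rose and 3 fell at 24 h (2 and 2 after quantile normalization), 0 and 0 at day 3 (1 and 2 by limma at an unadjusted p under 0.05), and 1 and 1 at day 5 (3 and 1 after quantile normalization, 5 and 1 with a common median).

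Of the SIN3 and histone deacetylase corepressors, through which the MXD proteins act, 9 of 12 were measured. With ARA-C 1 rose and 1 fell at 24 h, 1 and 0 at day 3 (0 and 3 with a common median), and 0 and 8 at day 5 (median -0.72), the last falling to 2 after either rescaling. SAP18 fell by 1.10 at day 5. With doxorubicin 0 rose and 0 fell at 24 h, also at an unadjusted p under 0.05 by limma, 2 and 1 at day 3, and 1 and 2 at day 5, of which the day 5 counts were 2 and 1 after quantile normalization and 1 and 0 with a common median. RBBP7, a histone-binding subunit, fell by 0.75 (limma adjusted p = 1.2e-09) at day 3 and by 0.51 (limma adjusted p = 1.3e-06) at day 5, and HDAC1 rose by 0.38 and 0.47. Puromycin 0.09 uM at the 3 times and the vehicle steps gave 0 calls by limma in either direction. At an unadjusted p under 0.05, 2 rose with puromycin at 24 h, 1 rose and 1 fell in the first vehicle step, and 1 rose and 2 fell in the second. With a common median 3 rose with puromycin at 24 h and 5 at day 5, and after quantile normalization 3 and 2.

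Among 11 of 15 measured genes of MYC protein turnover, 2 rose and 1 fell with ARA-C at 24 h, 0 and 1 at day 3, and 2 and 3 at day 5. Doxorubicin gave 0 and 3, 1 and 3, and 2 and 3, and puromycin 1 and 3, 0 and 0, and 0 and 1. At an unadjusted p under 0.05 the limma counts with puromycin at day 3 were 1 and 0. The balance at day 5 turned with the scaling, to 4 and 1 with ARA-C and 3 and 2 with doxorubicin after quantile normalization, and to 3 and 2, 4 and 1 and, with puromycin, 5 and 0 with a common median. AURKA, a mitotic kinase that shields MYCN from degradation, fell by 0.60 with ARA-C and by 0.45 with doxorubicin at 24 h, and rose by 0.77 (limma adjusted p = 7.9e-06) with doxorubicin at day 3 and by 0.41 at day 5. PPP2R5A, a phosphatase subunit, fell by 1.60 with ARA-C at day 5 and by 1.03 and 1.55 with doxorubicin at days 3 and 5.

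The network has a parallel arm, in which MLX pairs with MLXIP (MondoA) and senses glucose products, and TXNIP is its best known target. MLX fell with ARA-C 0.17 uM by 0.80 (limma adjusted p = 4.7e-07) at day 3 and by 0.69 (limma adjusted p = 4.1e-07) at day 5, the latter turning to 0.17 after quantile normalization. With doxorubicin it fell by 0.74 at day 3 and 1.13 (SE 0.11, limma adjusted p = 2e-12) at day 5, and with puromycin by 0.48 at day 3. MLXIP fell with ARA-C by 0.62 at 24 h and by 1.11 (limma adjusted p = 4.6e-06) at day 5. MYCL, another MYC relative, rose in vehicle cells from day 3 to day 5 by 1.22 (SE 0.42, limma adjusted p = 0.03). Its signals were dim, at 10.2 to 72.8 at day 3 and 58.1 to 102 at day 5. The call was lost after quantile normalization and within rows A-F.

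TXNIP, which restrains glucose uptake, had vehicle signals of 747 to 974 at day 3. At day 5 they were 1150 to 1498 in rows A-F and 7030 to 8100 in rows G-H. The rise of 1.85 (SE 0.30, limma adjusted p = 4.5e-06) was 0.56 within rows A-F (limma adjusted p = 0.092) and 3.14 within rows G-H (limma adjusted p = 4.4e-19), so that its size rests on the plate part. At day 5 TXNIP fell by 2.61 (log2) against vehicle with ARA-C 0.17 uM (limma adjusted p = 8.9e-09), by 2.05 with doxorubicin 59.88 nM (limma adjusted p = 2.8e-06) and by 2.04 with puromycin 0.09 uM (limma adjusted p = 0.00023), and within the same plate part the differences from vehicle were -1.36, -0.79 and -0.78.

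Other factors that bind E-boxes were measured in 9 of 10. With ARA-C 0 were called by limma at 24 h (1 higher at an unadjusted p under 0.05), 3 rose and 0 fell at day 3 and 0 rose and 5 fell at day 5. Doxorubicin gave 0 and 2, 2 and 1, and 1 and 4, and puromycin 0 and 2, 0 and 2, and 0 and 3. With a common median ARA-C day 3 gave 0 and 1 and puromycin day 5 gave 0 and 0, and after quantile normalization ARA-C day 5 gave 3 and 3 and doxorubicin day 5 3 and 4. SREBF1, a regulator of lipid synthesis, fell by 2.28 (SE 0.20, limma adjusted p = 9.4e-14) with ARA-C at day 5, by 0.88, 1.08 and 2.08 with doxorubicin and by 0.98, 1.16 and 0.77 with puromycin, and in vehicle cells rose by 0.80 from day 3 to day 5.

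The genes most like MYC over the 21 group means, among 9348 candidates with a log2 range of at least 1, were SINHCAF (r = 0.971), SNW1 (0.967), RB1CC1 (0.962), MED17 (0.947) and SFPQ (0.944). The least alike were PPP2CA (-0.883), AP3D1 (-0.857) and SMARCC1 (-0.850). The 21 means share the arrays' scaling and the day 5 groups of high ACTB ratio, and the correlations are a description.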

How the data were processed

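Total RNA of A673 cells was hybridized to Affymetrix HT arrays in plate format. The authors deposited MAS5 intensity values (version not given in the sources used here) on a linear scale, each array brought to a common mean, which here was 1094 to 1103 over all probe sets. Groups came from the labels and plate rows from the study's sample list. Of 22930 probe sets 715 controls were left out. Of the 22215 others 19230 carried 1 symbol, 125 several and 2860 none. Signals under 10 were raised to 10, those over 16000 lowered to 16000, and log2 was taken. Group means of 67 arrays were fitted at once with limma 3.58.1 (R 4.3.3, intensity trend, 46 residual and 5.036 prior degrees of freedom), with Benjamini-Hochberg adjustment over all probe sets and a threshold of 0.05. Sample columns without a match in the labels numbered 0. The fit was tested on simulated data with independent noise and without plate part effects, which checks the code and not its assumptions for these arrays.

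The members and lists were chosen with earlier results of these data known. Of each list the probe set with the highest mean stands for a gene, and up to 4 called genes with the largest change in each comparison with the EC50 dose could be named. Other probe sets of a gene can disagree, as those of MAX do. Genes named as like MYC were the 5 with the highest and the 3 with the lowest correlation over group means. Alternatives were quantile normalization, a common median, other floors, no dim probe sets, plate part or replicate number as a block, single arrays left out, the blood-like array kept and, chosen after seeing the data, values within plate rows and without the 2 arrays with raised dim signals. The 1 to 6 arrays per group limit the precision.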

Additional observations from a re-analysis of the deposited data

Results flagged for a closer look

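In 44 groups of 4 to 10 arrays tested for an array far from the others, 2 had one, in a test that chance passes in about 1 in 20 groups. These were the vehicle day 5 array at 17.2 on MYCN 211377_x_at and the vehicle day 3 array at 1101 on MXI1. On the MYCN probe set all other arrays of the group were under the floor and were set to 10. Any single array over 10 then passes, so that the rate of 1 in 20 does not hold for such a group.

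In 7 pairs of times, all arrays of a treated group lay above vehicle at 1 time and below it at another, and the difference between the times was not tested. MXI1 with doxorubicin 59.88 nM was above by 0.44 (log2) at 24 h and 0.22 at day 3 and differed by -0.92 at day 5. With 119.76 nM the differences were 0.67, 0.28 and -1.71. MAX 210734_x_at with ARA-C 0.34 uM was at -0.75 at day 3 and 0.68 at day 5. With puromycin 0.18 uM, whose day 5 group is 1 array, MYC was at 0.33 at day 3 and -0.54 at day 5 and MXD4 212346_s_at at 0.74 and -1.58. The vehicle arrays themselves differ between these times, MXI1 being called higher at each.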

How the results depend on the processing

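For 26 results, 599 values were recomputed, of which 528 stayed and 71 moved. A treated MYC difference stayed if it shifted by less than the spread between arrays, so that the sign of a small one could turn. In the vehicle steps MYC stayed if it kept its side of the threshold. A count stayed if it was of similar size, and MYC-activated genes were counted in either direction together. Their day 5 count with ARA-C 0.17 uM thus stayed, though 5 higher and 17 lower became 13 and 8 after quantile normalization. With a common median MYC was at -0.72 for ARA-C 0.17 uM day 3, -0.08 for doxorubicin 59.88 nM day 5, and 0.12, 0.47 and 0.53 for puromycin 0.09 uM at 24 h, day 3 and day 5. With the blood-like array kept, MYC was at -1.38 and MXI1 turned to 0.34 for puromycin 0.09 uM day 5. After quantile normalization MLX turned to 0.17 for ARA-C 0.17 uM day 5. Over the vehicle steps, members called higher were 0 at day 3 with the blood-like array kept, and at day 5 were 2 without dim probe sets and 2 within rows A-F. Members called lower at day 5 were 1 with the blood-like array kept, 1 within rows A-F and 1 within rows G-H.

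MYC-activated genes called in either direction came, with a common median, to 3 and 13 for ARA-C 24 h and day 3 and to 0, 0 and 25 for puromycin at the 3 times. With the blood-like array kept they were 1 and 2 for ARA-C 24 h and day 3, 1, 4 and 10 for doxorubicin, 0, 0 and 24 for puromycin, and 0 and 10 for the vehicle steps. With only the arrays of the comparison they were 14 and 12 for ARA-C 24 h and day 5, 9 for doxorubicin day 5, 2 and 0 for puromycin day 3 and day 5, and 3 and 13 for the vehicle steps. Against vehicle of the same plate part they were 5 for ARA-C day 3 and 4 and 3 for puromycin day 3 and day 5. Without the arrays with raised dim signals ARA-C day 3 gave 2. With plate part as a block puromycin day 3 gave 4 and the first vehicle step 2. Without dim probe sets these gave 3 and 2. With the lowest-mean probe set of each gene doxorubicin 24 h gave 2 and the first vehicle step 2. Within rows G-H the first vehicle step gave 3, and within rows A-F the second gave 6. These fits use fewer arrays where arrays are left out, and otherwise the cause was not tested.

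Leaving out single arrays moved MYC between -1.03 and -0.73, -0.53 and -0.31, and -1.95 and -1.04 for ARA-C 0.17 uM at the 3 times, -0.34 and -0.20, 0.13 and 0.23, and -0.60 and -0.30 for doxorubicin 59.88 nM, -0.27 and -0.05, 0.22 and 0.32, and -0.07 and 0.16 for puromycin 0.09 uM, and 0.00 and 0.12, and -0.23 and -0.07 for the vehicle steps. The members called stayed at 1 higher in the first vehicle step and ranged from 4 to 6 higher and 1 to 2 lower in the second. The MYC-activated genes called ranged from 3 to 8, 2 to 9 and 20 to 24 with ARA-C, 2 to 6, 5 to 9 and 16 to 19 with doxorubicin, 3 to 6, 0 to 2 and 7 to 18 with puromycin, and 1 to 3 and 18 to 25 in the vehicle steps.

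No pairing by replicate number was seen: of 43 pairs of a treated and a vehicle array with the same number, 1 had a correlation of deviations over 0.1 (-0.0981 to 0.112, median -0.00849). Vehicle deviations were taken from a mean over both plate parts, which can mask a pairing, so that the check cannot exclude one. With replicate as a block the members called in the second vehicle step were 5 higher and 2 lower, MYC was at -0.80, -0.28 and -1.48 with ARA-C, and the MYC-activated genes called were 4 for puromycin day 3 and 2 for the first vehicle step. Dim probe sets limit what can be seen of MXD1, MXD3 and MXD4.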
